A study of Rattus norvegicus with 18 samples.

Results

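The receptors of the GDNF family, namely the signalling receptor Ret and the co-receptors Gfra1, Gfra2 and Gfra3, were followed in poly(A) RNA of cervical dorsal root ganglia (DRG). They were chosen by gene symbol, and the 4 symbols correspond to 5 of the 15075 RefSeq identifiers in the count table, because Ret has 2 identifiers (NM_012643 and NM_001110099). The others have 1 each, NM_012959 for Gfra1, NM_012750 for Gfra2 and NM_053398 for Gfra3.

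The C6-C8 ganglia of adult Lister hooded rats were compared in 3 groups of 6 rats. Naïve rats had neither operation nor injection. bPYX+GFP rats had both corticospinal tracts cut in the medullary pyramids (bilateral pyramidotomy, bPYX) and, a day later, an injection of AAV1-CMV-EGFP into the flexor muscles of 1 forelimb, so that injury and viral vector cannot be told apart in their comparison with naïve rats. bPYX+NT3 rats had the same lesion and an AAV1-CMV vector that encodes human neurotrophin-3 (NT3), a muscle-derived growth factor for large sensory neurons. In the injured groups the ganglia of the injected side were taken 10 weeks after the lesion, and each rat gave 1 library of whole ganglia, including neurons that do not supply the injected muscles, glia and other cells. The CMV promoter is not specific to a cell type.

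GDNF family ligands bind a GFRα co-receptor, which is anchored to the outer membrane by a lipid and has no signalling domain of its own, and the complex then activates the tyrosine kinase Ret. GFRα1 is the preferred partner of GDNF, GFRα2 of neurturin and GFRα3 of artemin. In adult sensory ganglia Ret and Gfra2 are known from non-peptidergic nociceptors and some mechanoreceptors and Gfra3 from peptidergic nociceptors, while Gfra1 is found in a more mixed set of neurons and is known to rise after peripheral axotomy. NT3 acts through another receptor, TrkC.

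Depth ranged from 10057787 to 16002410 read-pairs on genes per rat, and all 5 rows were well covered, with between 184 (Gfra3) and 8362 (Ret NM_012643) reads per rat. The markers of DRG neurons summed to between 3809 and 5908 CPM per rat (CPM is the read count scaled to a common library size with edgeR's TMM factors) and those of myelinating Schwann cells to between 1979 and 3585 CPM, whereas those of central nervous tissue did not exceed 13.9 CPM, those of skeletal muscle 5.28 CPM and those of adipocytes 78.6 CPM. Among the libraries, rat 11 of the bPYX+NT3 group and rat 57 of the bPYX+GFP group stood apart in the no-feature share, the percentage of read-pairs that fell on no annotated exon. It was 30.8% in rat 11 and 31.7% in rat 57, and between 32.5% and 34.6% in the other 16 rats. The title recorded with each rat's deposited counts names another group in 17 of 18 rats. The groups used here are those that the sample numbers in the heading of the authors' count table give, and the other grouping was run as an alternative. The heading's groups gave the paper's own log2 fold changes of Adipoq, -2.11 for bPYX+NT3 vs bPYX+GFP and -1.85 for bPYX+NT3 vs naïve.

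No receptor passed the test for a difference between any 2 groups. With edgeR's quasi-likelihood test, 0 of the 5 rows reached an unadjusted p under 0.05 for bPYX+GFP vs naïve, where 3.25% of all genes tested did, 0 of 5 for bPYX+NT3 vs naïve (6.01% of all genes) and 0 of 5 for bPYX+NT3 vs bPYX+GFP (1.73% of all genes). The likelihood ratio test and DESeq2 also called 0 of the 5 rows in each comparison. The median log2 fold change of the 5 rows was -0.02, -0.00 and 0.03 in the same order, beside 0.01, 0.00 and 0.00 for all genes. With so few rows, the shares in the whole table leave less than 1 call to be expected. The intervals given below for each gene therefore carry more than the count, since they show which changes remain compatible with these libraries. The levels overlapped between all groups for each of the 5 rows, which is given as a description. The share of all genes with such overlap is not given here, so the overlap says nothing particular to the receptors. Some markers of other cells did pass at an unadjusted p under 0.05 in edgeR: 2 of 6 of myelinating Schwann cells and 2 of 4 of fibroblasts were lower for bPYX+GFP vs naïve, and 1 of 6 and 2 of 4 of the same lists were lower while 1 of 8 tested neuronal and 2 of 4 non-myelinating Schwann cell markers were higher for bPYX+NT3 vs naïve. For bPYX+NT3 vs bPYX+GFP, 2 of 2 tested adipocyte markers were lower (median log2 fold change -2.08) and 1 of 4 of satellite glia was higher. Exact permutation tests on log2 CPM gave p = 0.141 and 0.130 for these adipocyte markers and p = 0.0260 for the satellite glia marker. The adipocyte markers varied widely, at 14.6 ± 21.4 and 8.16 ± 7.81 CPM in bPYX+GFP rats (SD). Single markers of endothelial cells (higher), adipocytes and central nervous tissue (both lower) also passed for bPYX+NT3 vs naïve. For the markers called against naïve rats, the exact permutation p ranged from 0.00433 to 0.214, so that not all of them passed this test too. The part of these markers in the receptor values was not tested.

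**Figure D1:**
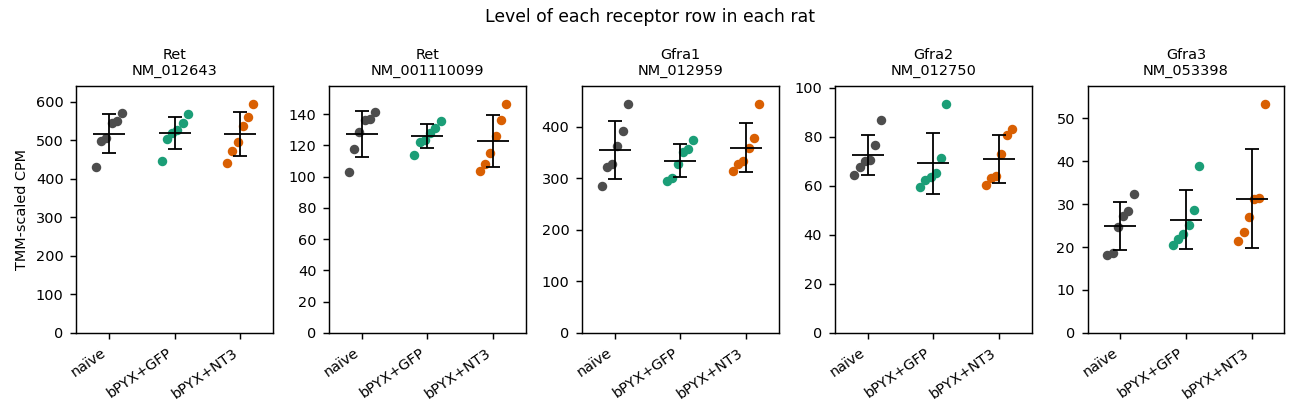
Level of each of the 5 receptor rows in each rat (y axis, TMM-scaled CPM, starting at 0; x axis, group). Points are rats and the bars show the mean and SD of 6 rats. The ranges of the groups overlap for every row, and the highest Gfra3 values are those of rat 11 (53.4 CPM, bPYX+NT3) and rat 57 (39.02 CPM, bPYX+GFP).

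Ret, the kinase that all GFRα co-receptors share, was the steadiest of the receptors. On NM_012643 the lowest, median and highest level was 429.7, 526 and 572 CPM in naïve rats, 447, 523 and 569 CPM in bPYX+GFP rats and 441, 516 and 595 CPM in bPYX+NT3 rats. The group means were 517 ± 51.0, 519 ± 41.8 and 517 ± 57.7 CPM (SD, n = 6 each). The 3 means therefore lay within 2 CPM of each other, far less than the SD within any group. The log2 fold change was 0.01 ± 0.08 (SE) for bPYX+GFP vs naïve, with a 95% interval from -0.16 to 0.17 (edgeR adjusted p = 0.9998). It was -0.00 ± 0.09 for bPYX+NT3 vs naïve (interval -0.19 to 0.18) and -0.01 ± 0.08 for bPYX+NT3 vs bPYX+GFP (interval -0.17 to 0.16). Changes of Ret within these intervals remain compatible with the values of 6 rats in each group.

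The second Ret identifier, NM_001110099, behaved like the first at a lower count. Its lowest, median and highest level was 103, 133 and 142 CPM in naïve rats, 114, 126 and 136 CPM in bPYX+GFP rats and 104, 121 and 147 CPM in bPYX+NT3 rats. For this identifier the log2 fold change was -0.02 ± 0.08 (SE) for bPYX+GFP vs naïve, -0.06 ± 0.10 for bPYX+NT3 vs naïve and -0.04 ± 0.08 for bPYX+NT3 vs bPYX+GFP, with intervals between -0.27 and 0.16. A read that fits both identifiers was not counted for either, so each row covers only the exons particular to that transcript, and the uncounted reads of the shared exons are in neither. Deviations of the 2 rows from their group means ran together over the 18 rats (Pearson's r = 0.957, a description).

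How the Ret reads were split between the 2 identifiers is a measure within a library that does not depend on scaling, and was examined after the values were seen. NM_001110099 held between 18.7% and 20.5% of the Ret reads in the 18 rats. The mean share was 19.8 ± 0.670%, 19.6 ± 0.407% and 19.1 ± 0.425% in the order naïve, bPYX+GFP, bPYX+NT3 (SD, n = 6 each). The largest difference, -0.608 percentage points for bPYX+NT3 vs naïve, did not pass a two-sided exact permutation test (p = 0.0909, adjusted p = 0.192 over 3 comparisons). The split between the transcripts was thus not distinguishable between the groups.

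Gfra1, the GDNF co-receptor, had the most reads of the co-receptors, although levels of different genes cannot be ranked here because the lengths of the counted parts were not given. Its lowest, median and highest level was 286, 346 and 444 CPM in naïve rats, 296, 339 and 374 CPM in bPYX+GFP rats and 314, 346 and 444 CPM in bPYX+NT3 rats. The means followed in the order bPYX+NT3 (359 ± 47.6 CPM), naïve (356 ± 56.5 CPM) and bPYX+GFP (334 ± 31.7 CPM), and no neighbours in that order differed by more than the SD within the groups. The log2 fold change was -0.09 ± 0.10 (SE) for bPYX+GFP vs naïve (95% interval -0.30 to 0.12), 0.01 ± 0.11 for bPYX+NT3 vs naïve (interval -0.22 to 0.25) and 0.10 ± 0.09 for bPYX+NT3 vs bPYX+GFP (interval -0.09 to 0.29). Exact permutation tests on log2 CPM gave p = 0.487, 0.877 and 0.323 in the same order. The highest rats of the naïve and of the bPYX+NT3 group, rats 42 and 17, both stood at 444 CPM, so the spread of Gfra1 lay mostly within groups.

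Gfra2, the neurturin co-receptor, reached 64.4, 70.3 and 87.0 CPM (lowest, median and highest) in naïve rats, 59.4, 64.4 and 93.4 CPM in bPYX+GFP rats and 60.4, 68.5 and 83.3 CPM in bPYX+NT3 rats. The means were 72.7 ± 8.10, 69.2 ± 12.5 and 70.8 ± 9.80 CPM (SD, n = 6 each), so that naïve rats came first and bPYX+GFP rats last, with differences inside the spread. The log2 fold change was -0.07 ± 0.11 (SE) for bPYX+GFP vs naïve (95% interval -0.31 to 0.17), -0.04 ± 0.10 for bPYX+NT3 vs naïve (interval -0.25 to 0.17) and 0.03 ± 0.12 for bPYX+NT3 vs bPYX+GFP (interval -0.23 to 0.30). The highest value of all 18 rats was that of rat 57. Without that rat the log2 fold change for bPYX+GFP vs naïve was -0.18, and with an unadjusted p of 0.0357 in edgeR it then passed the threshold of 0.05, at an adjusted p of 0.908. Leaving out rat 57 also raised the share of all genes called in that comparison from 3.25% to 5.16%.

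Gfra3, the artemin co-receptor, had the fewest reads and the widest spread of the 5 rows. Its lowest, median and highest level was 18.2, 26.0 and 32.3 CPM in naïve rats, 20.5, 24.2 and 39.02 CPM in bPYX+GFP rats and 21.3, 29.1 and 53.4 CPM in bPYX+NT3 rats. The SD was 22.5%, 25.8% and 36.8% of the mean in these groups, whereas it was between 6.05% and 18.0% for the other rows. Over the 18 rats the highest value was 2.94 times the lowest, compared with 1.38 times for Ret NM_012643.

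The largest difference between groups was also that of Gfra3. Its mean was 24.9 ± 5.60 CPM in naïve, 26.4 ± 6.80 CPM in bPYX+GFP and 31.3 ± 11.5 CPM in bPYX+NT3 rats (SD, n = 6 each). In bPYX+NT3 vs naïve the log2 fold change was 0.33 ± 0.21 (SE), with a 95% interval from -0.12 to 0.78 (edgeR adjusted p = 0.607 and exact permutation p = 0.253), and 4 of 6 bPYX+NT3 rats lay above the naïve median. It was 0.25 ± 0.22 for bPYX+NT3 vs bPYX+GFP (interval -0.23 to 0.72) and 0.09 ± 0.18 for bPYX+GFP vs naïve (interval -0.29 to 0.47). None of these passed the test, and the upper bounds are too high to call the level of Gfra3 unchanged. Without rat 11 the log2 fold change for bPYX+NT3 vs naïve was 0.11, and without rat 57 that for bPYX+GFP vs naïve was -0.07.

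**Figure D2:**
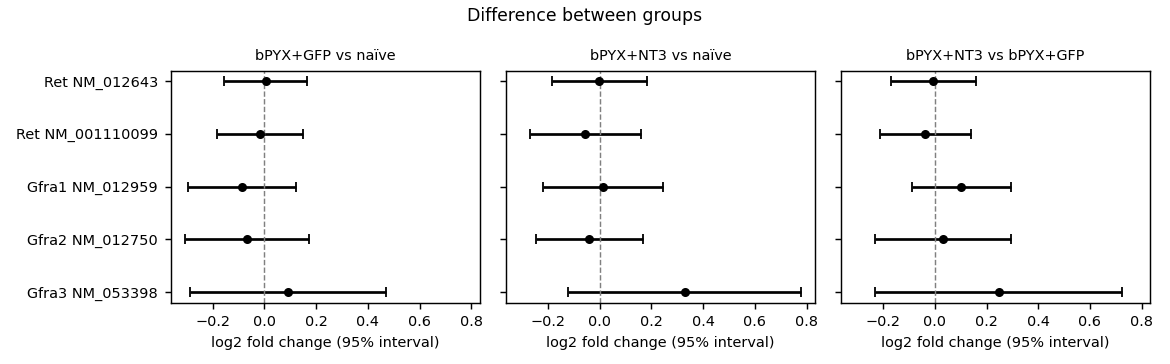
Log2 fold change of each receptor row in the 3 comparisons (x axis), with points for the edgeR estimate and bars for its 95% interval. All 15 intervals include 0, and those of Gfra3 are the widest.

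Since the co-receptors act together with Ret, their reads were also expressed relative to the Ret reads of the same library, which leaves the scaling between libraries out of the comparison. Because of the uncounted shared exons and unknown lengths, the ratio can be compared between rats but is not a ratio of molecules. Gfra1 reads amounted to between 41.3% and 83.4% of the Ret reads (medians of 51.9%, 52.7% and 54.3% in the order naïve, bPYX+GFP, bPYX+NT3). Gfra2 reads amounted to between 8.63% and 16.7% (medians of 10.8%, 9.68% and 10.9% in the same order), and Gfra3 reads to between 2.65% and 9.83% (medians of 3.83%, 3.73% and 4.58%). None of the 9 comparisons passed a two-sided exact permutation test, in which the smallest p possible with 6 rats against 6 is 0.00216. The largest difference was a log2 ratio of Gfra3 to Ret that was higher by 0.31 in bPYX+NT3 than in naïve rats (exact permutation p = 0.349, adjusted p = 0.868 over the 9 ratios).

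The receptors did vary between rats, and they did so along with other properties of the libraries. After the group means had been subtracted, Gfra3 was lower in rats with a higher no-feature share (Pearson's r = -0.909, Spearman's rho = -0.864, n = 18, permutation adjusted p = 4e-05 for r). The same sign was seen within each group (r = -0.785, -0.905 and -0.978 in the order naïve, bPYX+GFP, bPYX+NT3), and without rats 11 and 57, the farthest from the median, r was -0.796. Gfra2 was likewise lower with a higher share (r = -0.730, rho = -0.538, adjusted p = 0.00164). Ret moved the other way and was higher (r = 0.711, rho = 0.670, adjusted p = 0.00164), whereas Gfra1 had r = -0.357, which did not pass (permutation adjusted p = 0.148), and rho = -0.517, which did (permutation adjusted p = 0.0304), with r = -0.505 without rats 11 and 57. These 4 relations were computed after the values were seen, as 1 family.

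Such relations were common in these libraries. Of the 9439 genes with a mean of at least 5 CPM, 72.6% had an absolute r over 0.5 with the no-feature share. An absolute r as large as that of Gfra3 was reached by 12.2% of these genes, as large as that of Gfra2 by 51.99%, and as large as that of Ret NM_012643 by 53.8%. The no-feature share was not distinguishable between the groups (32.9 ± 1.11% in bPYX+NT3 and 33.6 ± 0.787% in naïve rats, exact permutation p = 0.288). With the share as a covariate in the edgeR fit, the log2 fold change of Gfra3 for bPYX+NT3 vs naïve was 0.03 in place of 0.33.

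**Figure D3:**
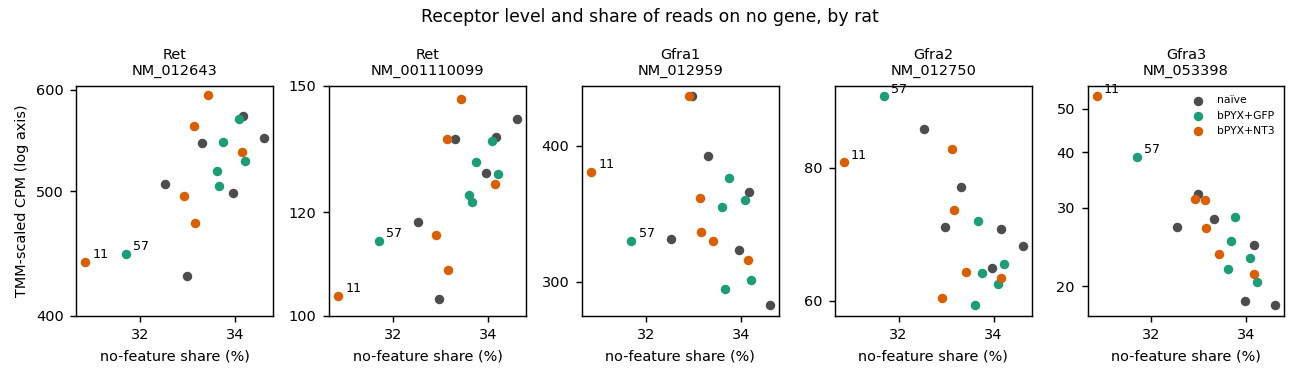
Level of each receptor row (y axis, TMM-scaled CPM on a log axis) against the no-feature share of the library (x axis, percent of read-pairs), 1 point per rat and colour by group, with rats 11 and 57 labelled. Gfra3 and Gfra2 are higher and both Ret rows lower where the share is low, while Gfra1 shows a looser relation.

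Among the receptors themselves, Gfra3 was the one whose level ran with others. Its deviations from the group mean went with those of Gfra2 (r = 0.678, rho = 0.651, permutation adjusted p = 0.0067 over 10 relations) and with those of Gfra1 (r = 0.562, rho = 0.680, adjusted p = 0.025), and against those of Ret (r = -0.629, rho = -0.499, adjusted p = 0.00918). The relation with Ret was not the same by rank (adjusted p = 0.0594 for rho), and r was -0.406 without rats 11 and 42. The other 3 pairs, Ret with Gfra1, Ret with Gfra2 and Gfra1 with Gfra2, had r between -0.388 and -0.0801 and did not pass. The neuronal markers, of which 8 of 10 had enough reads, ran with Gfra2 (r = 0.875) and Gfra3 (r = 0.877) and against Ret (r = -0.654), although all 4 receptors are known from neurons. When the no-feature share was subtracted as well, r was 0.05 for Gfra2 and Gfra3 and 0.06 for Ret and Gfra3, whereas it was 0.61 for Gfra1 and Gfra3. For the neuronal markers it was then 0.77 with Gfra2, 0.22 with Gfra3 and 0.016 with Ret. In whole ganglia, more cells of a type and more RNA per cell cannot be told apart.

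The genes whose levels followed each receptor most closely over the 18 rats differed between the receptors, as a description with no test. For Gfra1 they were Pcnx1 (r = 0.962), the kinase Tnik (0.932) and the antioxidant enzyme gene Srxn1 (0.932). For Gfra2 they were Rbfox3, the neuronal splicing factor NeuN (0.931), Pitpnm2 (0.928) and Pacsin1 (0.925), and for Gfra3 they were Maged1 (0.964) and Esyt1 (0.962). With the no-feature share also subtracted, the closest gene was Pcdhb3 (0.789) for Gfra3, ahead of Maged1 (0.769) and Esyt1 (0.764), and Cog8 (0.885) for Gfra2, ahead of Pitpnm2 (0.848), Rbfox3 (0.846) and Pacsin1 (0.834). For Ret NM_012643 they were Lrrtm2 (0.959), Foxj3 (0.944) and Zmat3 (0.937), and for NM_001110099 they were C2cd5 (0.939), Slc3a1 (0.936) and Ctnna2 (0.935). After the same subtraction of the share, the closest gene was Lrrtm2 (0.915) for NM_012643, Rap1gds1 (0.936) for NM_001110099 and Pcnx1 (0.964) for Gfra1.

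Further down the list for Gfra1 stood Atf3, a transcription factor known to be induced in sensory neurons by axotomy, which was picked out after its values were seen (r = 0.889, rho = 0.891, n = 18). The relation was of similar size within each group (r = 0.853, 0.935 and 0.938 in the order naïve, bPYX+GFP, bPYX+NT3), and r was 0.868 without rats 17 and 49. Atf3 ranked 9 for Gfra1, and with the no-feature share also subtracted it was no longer among the 10 closest genes. Rat 49, a naïve rat, had the lowest level of both genes, at 8.09 CPM of Atf3 and 286 CPM of Gfra1. Rats 17 and 42, of the bPYX+NT3 and the naïve group, had the highest Gfra1 and 124.8 and 93.9 CPM of Atf3. Atf3 itself passed the threshold in no comparison (unadjusted p = 0.186, 0.680 and 0.0693 in edgeR fitted across all genes, for bPYX+GFP vs naïve, bPYX+NT3 vs naïve and bPYX+NT3 vs bPYX+GFP). Rats 11 and 17 of the bPYX+NT3 group had more Atf3 than any naïve rat.

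**Figure D4:**
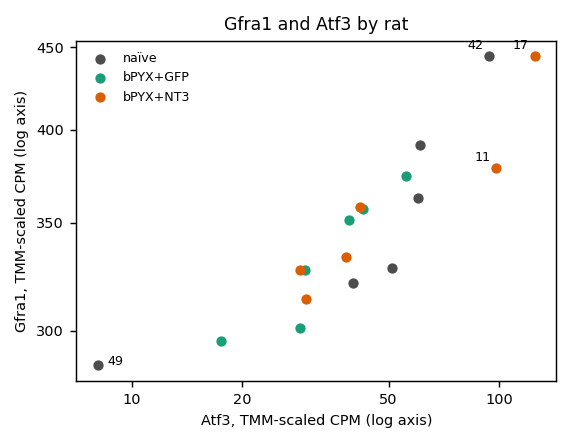
Gfra1 (y axis) against Atf3 (x axis), both in TMM-scaled CPM on log axes, 1 point per rat and colour by group. Rats 42 (naïve) and 17 (bPYX+NT3) lie at the upper right and rat 49 (naïve) at the lower left, and the 3 groups lie along the same band.

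Reads of the genes for the ligands of these receptors were close to absent from the ganglia. The ligand proteins were not measured. Over all 18 rats there were 12 reads of Gdnf, 2 of Nrtn (neurturin), 73 of Artn (artemin) and 64 of Pspn (persephin), and no rat had more than 13 reads of any of them. Gdf15, a more distant ligand that signals through Ret and GFRAL, had 7 reads. The remaining GFRα receptors were also at the limit, with between 2 and 17 reads per rat of Gfra4, the persephin co-receptor, and between 0 and 5 of Gfral. These 7 genes did not have the reads to be tested, and differences in them were not detectable at this depth.

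Of the proteins that bind Ret or its co-receptors or modify them, 6 of the 9 listed genes could be tested. In this list Ptprj, a receptor tyrosine phosphatase, was lower in bPYX+GFP than in naïve rats at 139 ± 12.2 against 158 ± 10.1 CPM (log2 fold change -0.18 ± 0.06, unadjusted p = 0.0130 in edgeR, adjusted p = 0.9998). Ncam1, an adhesion molecule that can serve as an alternative GDNF receptor together with GFRα1, was higher in bPYX+NT3 than in naïve rats at 149 ± 8.06 against 133 ± 10.9 CPM (log2 fold change 0.16 ± 0.06, unadjusted p = 0.0186 in edgeR, adjusted p = 0.607). Ncam1 is also a marker of non-myelinating Schwann cells, and the sum of that list was between 1132 and 1404 CPM in naïve and between 1237 and 1682 CPM in bPYX+NT3 rats. Its part in the result was not tested.

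Of 25 genes that carry the signal from Ret into the cell, 22 were tested. Pik3r1, the regulatory subunit of PI3 kinase, was lower in both injured groups than in naïve rats, with 219 ± 13.1 CPM in naïve, 198 ± 12.5 CPM in bPYX+GFP and 191 ± 18.4 CPM in bPYX+NT3 rats (SD, n = 6 each). Relative to naïve rats its log2 fold change came to -0.15 ± 0.06 with bPYX+GFP (unadjusted p = 0.0223 in edgeR, adjusted p = 0.9998) and -0.20 ± 0.07 with bPYX+NT3 (unadjusted p = 0.0134, adjusted p = 0.607), 2 comparisons that share the naïve rats. The adaptor Frs3 was higher in bPYX+NT3 than in naïve rats at 2.82 ± 0.947 against 2.04 ± 0.389 CPM (log2 fold change 0.47 ± 0.22, unadjusted p = 0.0466, adjusted p = 0.607), a low level at which the exact permutation test gave p = 0.0671. The median log2 fold change of the signalling list was 0.02 in bPYX+GFP against naïve, 0.11 in bPYX+NT3 against naïve and 0.06 for bPYX+NT3 vs bPYX+GFP.

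Among the transcription factors that set the identity of sensory neurons, 5 of 11 could be tested. Maf, which acts in mechanoreceptors, was lower in bPYX+NT3 than in naïve rats at 36.8 ± 5.11 against 43.3 ± 3.05 CPM (log2 fold change -0.24 ± 0.09, unadjusted p = 0.0226 in edgeR, adjusted p = 0.607). Runx1, which is needed for the Ret-expressing nociceptors, had a log2 fold change between -0.08 and -0.03 in the 3 comparisons and did not pass. Counted together, 2 of 33 regulator, signalling and transcription factor genes tested (6.06%) had an unadjusted p under 0.05 for bPYX+GFP vs naïve, 4 of 33 (12.1%) for bPYX+NT3 vs naïve and 0 of 33 for bPYX+NT3 vs bPYX+GFP, beside 3.25%, 6.01% and 1.73% of all genes. The quasi-likelihood fits, with Benjamini-Hochberg adjustment over all genes, gave 0 of these genes and 0 of all genes tested an adjusted p under 0.05. That 0 depended on the method for bPYX+GFP vs naïve. There the likelihood ratio test left 13 of 11601 genes below 0.05 after adjustment, DESeq2 16 and the no-feature share as covariate 17. In the comparisons with bPYX+NT3 rats the same alternatives left 0.

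The neurons that carry these receptors were followed through their markers. The 5 tested markers of non-peptidergic nociceptors, the class known for Ret and Gfra2, included 0 with an unadjusted p under 0.05 in any of the comparisons, and their summed level had medians of 576 CPM in naïve, 566 CPM in bPYX+GFP and 573 CPM in bPYX+NT3 rats. Most of that sum was 1 gene, Scn11a, with means of 516, 527 and 520 CPM in the same order. The sum therefore says little about the other markers, and only 5 of the 9 listed genes matched an identifier. Mrgprd, which defines that class, had a log2 fold change of 0.31 ± 0.18 (SE) for bPYX+NT3 vs naïve (unadjusted p = 0.119 in edgeR). The 4 markers of C low-threshold mechanoreceptors and the 9 tested identifiers of large-fibre neurons also gave 0 calls in each comparison.

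The calls among the subtype markers were 2 of the 7 tested markers of peptidergic nociceptors, the class known for Gfra3. Calcb, which encodes a calcitonin gene-related peptide, was higher in bPYX+NT3 than in naïve rats at 102 ± 5.74 against 85.5 ± 6.55 CPM (log2 fold change 0.25 ± 0.06, unadjusted p = 0.00122 in edgeR, adjusted p = 0.607 and exact permutation p = 0.00433). Gal, the neuropeptide galanin, was higher in bPYX+NT3 than in bPYX+GFP rats at 22.7 ± 16.4 against 11.6 ± 5.26 CPM (log2 fold change 0.97 ± 0.43, unadjusted p = 0.0425, adjusted p = 0.851), but the exact permutation test gave p = 0.119 and the SD of the bPYX+NT3 rats was wide. The median of the 7 markers was 0.21 for bPYX+NT3 vs naïve, beside 0.00 for all genes, 0.33 for Gfra3, 0.18 for the general neuronal markers, 0.21 for endothelial and 0.15 for non-myelinating Schwann cell markers. The 4 lists held 25 tested identifiers, of which 0, 1 (4.0%) and 1 (4.0%) were called in the 3 comparisons, beside 3.25%, 6.01% and 1.73% of all genes.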

How the data were processed

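The data are poly(A) RNA from C6-C8 DRG, 1 library for each of 18 rats in groups of 6. The authors prepared stranded libraries, sequenced 50 bp read-pairs, aligned them to Rnor_6.0 with TopHat2, removed duplicates with Picard and counted reads per RefSeq identifier with HTSeq (bcl2fastq 1.8.4 per the labels). The deposited counts are whole numbers and not normalized. The counts deposited per rat equal the column of that rat in the authors' table in 18 of 18 rats. Columns were assigned to groups by the table's heading. Read-pairs on no feature (33.3 ± 0.939%, SD over 18 rats), ambiguous (2.95 ± 0.166%) or on several locations (21.1 ± 0.799%) were left out of library sizes. Symbols came from RefSeq (14193 of 15075 identifiers matched). Duplicate removal, unique mapping and transcript-specific counting lower the counts of overlapping transcripts, Ret included.

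Each pair of groups was fitted in R 4.3.3 with edgeR 4.0.16 (TMM, glmQLFit and glmQLFTest, no covariate) keeping genes that exceeded 10 reads in 6 or more of the 12 rats, with Benjamini-Hochberg adjustment over all of them. A call is an unadjusted p under 0.05, as in the study. The SE is the absolute log2 fold change divided by the square root of F, and 95% intervals use the moderated degrees of freedom. For a single value, the exact permutation test (two-sided) used log2 CPM with a prior count of 2 or log2 ratios of counts plus 2, and correlations by 100000 permutations in Python 3.11.15 with numpy 2.4.6, pandas 2.3.3, scipy 1.17.1 and matplotlib 3.10.9. Resampled p-values of 1e-05 are the smallest possible. In a simulation of bPYX+GFP and naïve counts, 85% of 200 genes with a simulated log2 change of 1 were found at an adjusted p under 0.05, with 13 false calls among 11601 genes.

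The receptors and gene lists were chosen with earlier results of these data known. Named besides the receptors are list genes with an unadjusted p under 0.05 (at most 6 per comparison), the ligands, and the 3 genes most like each receptor among those of at least 5 CPM, as well as single genes picked out after their values were seen (Atf3, Runx1 and Mrgprd). The value of 1 gene most like Gfra3 is not reported here. Genes of the lists with no matched identifier, such as Cbl, P2rx3 and Tac1, were not analysed here. Any 2 rats of a group differed by more than counting noise (chi-square per gene between 3.27 and 53.6 over 45 pairs), so none was counted as a duplicate. Alternatives were DESeq2 1.42.0 and its size factors, library size alone, other filters, the likelihood ratio test, 1 fit over 3 groups, the no-feature share as covariate, the titles' groups and leaving out each rat. A block for the title number, the summed Ret identifiers and leaving out rats 11 and 57 were added after seeing the data.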

Additional observations from a re-analysis of the deposited data

Results flagged for a closer look

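Of 27 sets of 6 rats examined for a value far from the others (the levels, ratios to Ret and Ret split in each group), rat 57 of the bPYX+GFP group was far from the rest of its group in a pair of sets; chance gives about 1 in 20. Its log2 ratio of Gfra3 to Ret was -3.84, against -4.99 to -4.56 in the other 5 rats, and NM_001110099 held 20.3% of its Ret reads, against 19.3% to 19.5%.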

How the results depend on the processing

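All receptor differences are close to 0 beside their errors, so changes of sign among them carry little weight and are given for completeness, as log2 fold changes in the order bPYX+GFP vs naïve, bPYX+NT3 vs naïve and bPYX+NT3 vs bPYX+GFP where 3 stand together; the causes were not tested. None of the 15 passed the threshold with another scaling, filter or test, and depth left the ligands, Gfra4, Gfral and a few other pathway genes untested.

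Under the groups of the recorded titles, Ret NM_012643 stood at 0.10 for bPYX+NT3 vs naïve and 0.0076 for bPYX+NT3 vs bPYX+GFP, NM_001110099 at 0.11, 0.18 (unadjusted p = 0.0232 in edgeR, so 1 receptor row was called, beside 2.85% of all genes) and 0.066, Gfra1 at 0.021, -0.043 and -0.063, Gfra2 at 0.066 and 0.082 against naïve rats, and Gfra3 at -0.14, -0.24 and -0.10. The ratios to Ret were then -0.15 and -0.083 for Gfra1 in bPYX+NT3 vs the others, -0.0080 for Gfra2 in bPYX+NT3 vs bPYX+GFP, and -0.16, -0.33 and -0.16 for Gfra3, and the pathway lists gave 1 and 0 calls against naïve rats (1.49% and 2.85% of all genes). With the no-feature share as covariate, bPYX+NT3 vs naïve gave 0.067 and 0.031 for the Ret identifiers and -0.054 for Gfra1, bPYX+NT3 vs bPYX+GFP gave 0.052 and 0.012 for the Ret identifiers, -0.052 for Gfra2 and -0.0060 for Gfra3, and the pathway lists had 5 calls in bPYX+GFP vs naïve, where 7.31% of all genes were called in place of 3.25%. Ret NM_012643 changed sign with library size alone (-0.0015, 0.029 and 0.031), and for bPYX+NT3 vs naïve with DESeq2 (0.0011), its size factors (0.0011) or a filter at 1 CPM (0.0031). The summed Ret identifiers gave 0.0008 for bPYX+GFP vs naïve. Leaving out rats 11 and 57 gave -0.18 for Gfra2 in bPYX+GFP vs naïve (1 receptor row called, beside 5.16% of all genes), -0.066 for Gfra3 and 0.0076 for NM_001110099 in the same comparison, and 0.041 for NM_012643 and -0.0022 for Gfra1 in bPYX+NT3 vs naïve, with ratios of -0.030 for Gfra1 in bPYX+NT3 vs naïve and -0.079 for Gfra3 in bPYX+GFP vs naïve.

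Whether the title numbers pair the rats cannot be told from these values. Same-numbered rats deviated together (r over 0.1 across genes) in 3, 5 and 3 of 6 pairs, with r up to 0.617 for bPYX+NT3 vs naïve. The rat was nearest its own number in 1, 3 and 1 of the pairs. The replicate block with that number gave 0.30 for Gfra3 in bPYX+NT3 vs naïve (unadjusted p = 0.0328 in edgeR, 1 receptor row called), in a fit that also called 2962 of 11693 genes (6.01% of genes without the block), 1 and 11 of 33 pathway genes called against naïve rats (2.72% and 25.3% of all genes), and 1, 3 and 0 subtype markers called. For the pathway lists, 1 fit over the 3 groups gave 2 calls in bPYX+NT3 vs naïve (4.96% of all genes) and 1 in bPYX+NT3 vs bPYX+GFP (2.25%), DESeq2 gave 1 (1.82%) and the omission of rats 11 and 57 gave 8 in the latter, where it raised the share of all genes called from 1.73% to 12.7%. The subtype markers had 2 calls in bPYX+NT3 vs naïve with DESeq2, its size factors, no filter or the likelihood ratio test (between 5.76% and 7.00% of all genes), 2 with DESeq2 and 0 with 1 fit in bPYX+NT3 vs bPYX+GFP (1.82% and 2.25%), and 2 and 3 without rats 11 and 57 in bPYX+GFP vs naïve and bPYX+NT3 vs bPYX+GFP (5.16% and 12.7%).

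Leaving out each rat in turn gave, in the same order of comparisons, ranges of -0.045 to 0.042, -0.048 to 0.041 and -0.047 to 0.033 for Ret NM_012643, -0.075 to 0.016, -0.11 to -0.011 and -0.092 to 0.0036 for NM_001110099, -0.14 to -0.017, -0.044 to 0.089 and 0.037 to 0.14 for Gfra1, -0.18 to -0.013, -0.086 to 0.018 and -0.019 to 0.14 for Gfra2, and -0.066 to 0.17, 0.11 to 0.42 and 0.018 to 0.39 for Gfra3. The ratios to Ret ranged from -0.16 to 0.039, -0.050 to 0.15 and 0.040 to 0.18 for Gfra1, -0.21 to -0.023, -0.12 to 0.041 and -0.032 to 0.18 for Gfra2, and -0.079 to 0.21, 0.094 to 0.44 and 0.015 to 0.38 for Gfra3. Receptor rows called ranged from 0 to 1 (the 1 being Gfra2 without rat 57, where 5.16% of all genes were called), 0 to 0 and 0 to 0, pathway genes from 1 to 3, 3 to 6 and 0 to 10, and subtype markers from 0 to 2, 1 to 6 and 0 to 4. The highest counts for bPYX+NT3 vs bPYX+GFP are those without rat 57, where 19.8% of all genes were called, and the 6 subtype markers for bPYX+NT3 vs naïve are those without rat 17 (7.35% of all genes).

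Correlations moved as well. Without the farthest rats r was -0.0097 for Ret and Gfra1, -0.41 for Ret and Gfra3, 0.12 for Gfra1 and Gfra2 and -0.43 for the neuronal markers and Ret. With library size alone it was 0.20 for Gfra1 and Gfra2 and 0.44 for the neuronal markers and Gfra1. With the no-feature share subtracted it was -0.081 for Ret and Gfra1, 0.27 for Ret and Gfra2, 0.058 for Ret and Gfra3, -0.53 for Gfra1 and Gfra2 and 0.053 for Gfra2 and Gfra3, and for the neuronal markers 0.016 with Ret, -0.36 with Gfra1 and 0.22 with Gfra3.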
